A study of Mus musculus with 16 samples.

Results

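Transporters of amino acids and neurotransmitters were examined in preSC, mouse precancerous cells of small cell lung cancer. The genes were chosen by symbol: every listed gene named Slc1a, Slc3a, Slc6a, Slc7a, Slc17a, Slc18a, Slc32a, Slc36a, Slc38a or Slc43a followed by a number, which gave 66 of the 17655 gene symbols in the files. Of these, 64 are carrier genes or their subunits, and 2, Slc7a6os and Slc36a1os, are named for lying on the opposite strand of a carrier gene. The 36 symbols with a mean normalised read count of at least 10 over the 16 samples are described in full, and 35 of them are carriers. Per the labels, both groups were Chga-positive neuroendocrine cells of the lung, null for Rb1 and Trp53 and heterozygous null for Rbl2. The empty group (8 samples) had been infected with an empty lentivirus and the Wnt5a group (8 samples) with a lentivirus carrying Wnt5a, a secreted ligand of non-canonical Wnt signalling. Both were grown in RPMI1640 with 10% bovine growth serum and received 1 µg/mL doxycycline for 48 hours before RNA extraction, so the controls share the genotype, the infection and the drug. The labels name no clone or separate infection.

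Carriers of the Slc families move amino acids and transmitters across membranes. At the plasma membrane they bring glutamine, large neutral and cationic amino acids into the cell, often by exchanging one amino acid for another. In neuroendocrine cells, vesicular members load glutamate, monoamines or acetylcholine into secretory vesicles. Lysosomal members return amino acids to the cytosol and report their supply to the kinase complex mTORC1, and several plasma membrane members are known target genes of Atf4, a transcription factor that responds to amino acid shortage.

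The 8 samples of a group were not equally distinct. Recovered reads of samples 1 to 4 differed from each other by about the counting noise, and the same held for samples 5 to 8 (index of dispersion at most 1.05, against at least 5.23 between the sets). Each set was therefore averaged as 1 library, A and B, and n = 2 per group. Nothing in the labels says that the libraries came from separate cultures, so p-values measure at most the spread between these libraries. An exact permutation test of 2 against 2 libraries cannot give a p under 0.333. Recovered totals were 7526676 to 8859862 reads per sample. The introduced gene, Wnt5a, lay at 90.4 to 174 with the empty virus and 1032 to 1560 in the Wnt5a samples. All 10 neuroendocrine markers examined were expressed, with the lowest sample at 1365 for Ncam1 and 2955 for Chga. The leukocyte markers summed to 10.8 to 15.5 per library. Of the fibroblast markers, Dcn was at 597 and 340.2 in the empty libraries and 241 and 246 in the Wnt5a libraries, while Col1a2 and Col3a1 had at most 1 read in any sample. The part of Dcn-expressing cells in the falls reported here was not tested. In bulk RNA, fewer cells of a type and less RNA per cell cannot be told apart.

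The levels of the carriers spanned a wide range. Levels of different genes were compared per kilobase of the longest GENCODE M21 transcript. The highest was Slc38a2, with 583 normalised reads per kilobase, followed by Slc38a1 with 453. Both encode sodium-coupled carriers of glutamine and other small neutral amino acids (SNAT2 and SNAT1). Slc6a6, the taurine carrier, came next with 386 per kilobase, then Slc1a5, the glutamine exchanger ASCT2, with 341. Slc36a1, a proton-coupled carrier of small amino acids in lysosomes and at the cell surface, and Slc38a10, a less studied relative of SNAT2, both stood at 304. The other 4 of the 10 highest were Slc18a1 (251), Slc7a6 (229), Slc3a2 (199.7) and Slc7a5 (168). The 5 highest held 42.2% of the summed level per kilobase of the 36. At the low end, Slc6a14 stood at 3.60 per kilobase.

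**Figure D1:**
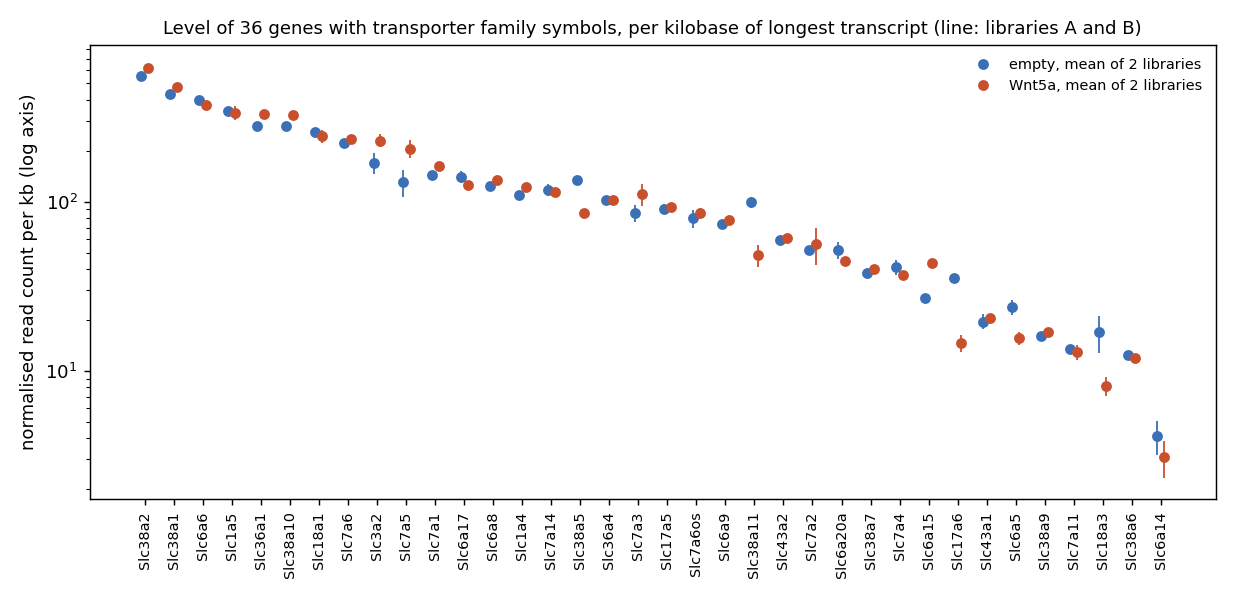
Level of each of the 36 symbols in normalised reads per kilobase (log axis), in order of the mean over the 16 samples. Points are means of 2 libraries per group and lines join libraries A and B. The groups nearly coincide for most genes, from Slc38a2 (551 in empty and 614 in Wnt5a) down to Slc6a14 (4.12 and 3.07), and lie farther apart for others, such as Slc17a6 (35.5 and 14.6), Slc18a3 (16.9 and 8.12), Slc38a11 (99.0 and 48.4) and Slc7a5 (130.1 and 206).

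The number of members that differed between the groups depended on the model. In the model without a replicate term, 4 of the 36 passed an adjusted p of 0.05 (limma, adjusted over 12357 genes). Slc17a6, Slc38a11 and Slc38a5 fell and Slc6a15 rose after Wnt5a. Across all genes tested 2.06% were called (1.38% higher and 0.672% lower). The labels give the samples of both groups the same numbers. With library A or B as a replicate block, 12 of the 36 passed, 7 higher and 5 lower, where 17.0% of all genes were called (8.68% higher and 8.27% lower). The block takes the step between A and B out of the spread. Its p-values rest on how far the A and B differences disagree, with 1 residual degree of freedom per gene. The 12 include all 4 of the first model, and each of the 12 differed in the same direction within pair A and within pair B. The fit with the block favours genes whose pairs agree, so this agreement is no separate support. In 11 of the 36 (7 higher and 4 lower), the 8 Wnt5a samples did not overlap the 8 empty samples, against 12.4% of all genes (6.45% higher and 5.95% lower). With the median difference of each chromosome subtracted, 4 members passed without the block (1 higher and 3 lower; 1.67% of all genes, 0.947% higher and 0.720% lower). With the block as well, 8 passed (3 higher and 5 lower; 9.47% of all genes, 3.67% higher and 5.80% lower). The member shares lie above these background shares, but the list itself was not tested. Of the 36, 26 differed by less than 0.25 on the log2 scale (72.2%, against 79.9% of all genes tested). The median difference was 0.05, against 0.0026 over all genes tested.

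**Figure D2:**
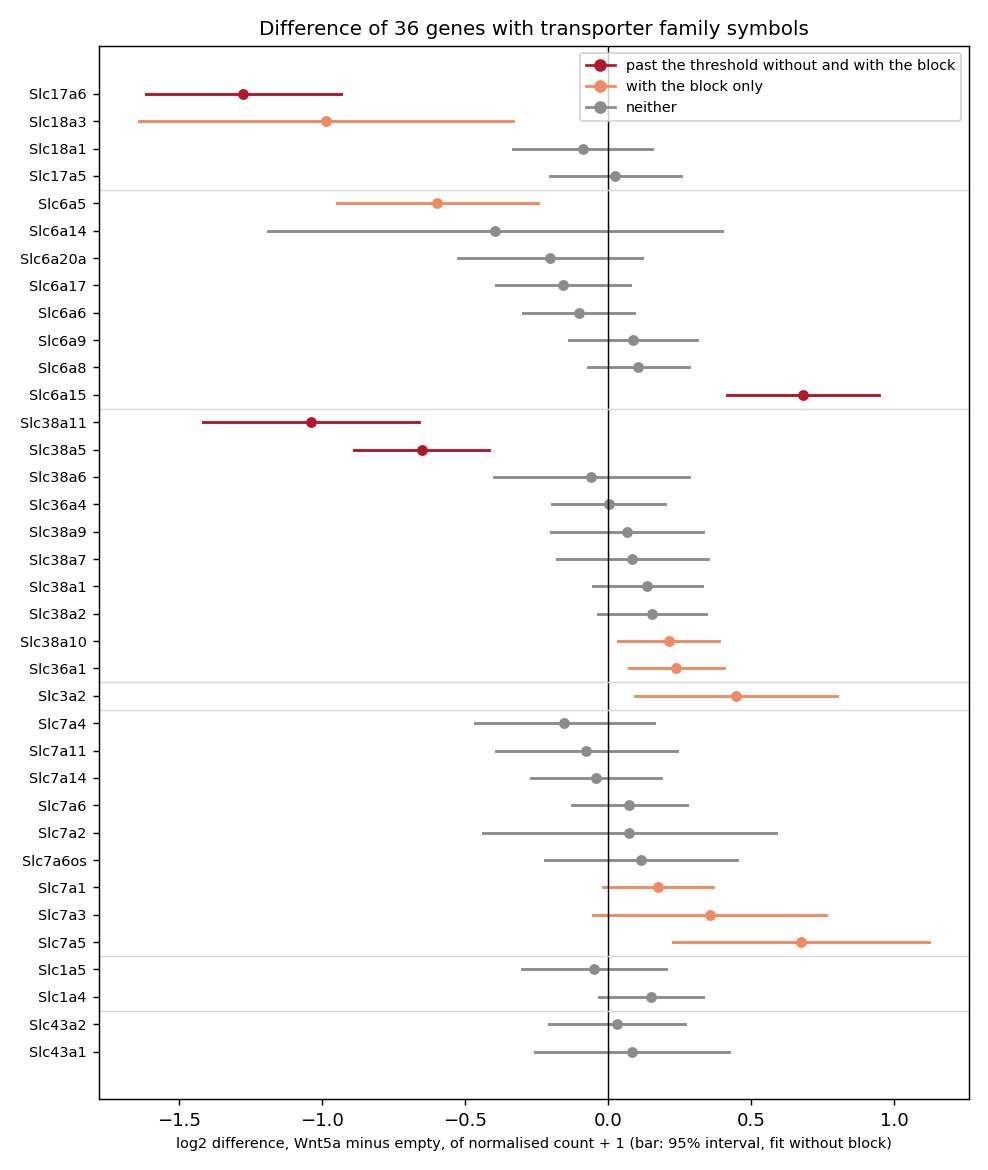
Log2 difference (Wnt5a minus empty, of normalised count + 1) of the 36 symbols with 95% intervals from the fit without the block, grouped by related families with grey lines between groups. Dark red marks the 4 past the threshold in both fits, orange the 8 past it with the block only. Slc17a6 lies lowest at -1.28 and Slc6a15 highest at 0.68.

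Among carriers of secretory vesicles and lysosomes, the glutamate carrier was lower after Wnt5a. Slc17a6 encodes VGLUT2, which fills synaptic-like vesicles with glutamate. Its normalised read count was 145 and 149 in empty libraries A and B, and 53.6 and 67.3 in Wnt5a libraries A and B. The empty samples ranged from 127 (median 149) to 163 and the Wnt5a samples from 48.6 (median 58.4) to 75.6, so every Wnt5a sample lay below every empty sample. The mean fell from 147 ± 3.16 to 60.4 ± 9.70 (SD, n = 2 per group), a 2.43-fold lower level. The log2 difference was -1.28 (SE 0.14), with a limma adjusted p of 0.0090 and 0.00092 with the block. The difference was -1.42 within pair A and -1.14 within pair B. Slc17a6 lies on chromosome 7, where the median difference of tested genes was -0.0020. The call was lost without the filter on low values (limma adjusted p = 0.051) and held in the 17 other alternatives.

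The acetylcholine carrier Slc18a3 (VAChT), one of the scarcer members above the minimum, was at 51.0 and 30.6 in the empty libraries and 22.1 and 17.1 in the Wnt5a libraries. The Wnt5a samples (12.2 to 29.2) overlapped the empty samples (24.4 to 56.0). The log2 difference of -0.99 (SE 0.27) passed with the block (limma adjusted p = 0.011) and not without it (0.14). It rests on 185 and 120 reads against 94 and 73, and it was -0.63 without empty library A (limma adjusted p = 0.26) and -1.35 without empty library B (0.00092). Slc18a1, which encodes VMAT1, the vesicular monoamine carrier of endocrine cells, was the most abundant vesicular member. It was at 842 and 769 with the empty virus and 821 and 696 in the Wnt5a libraries, a log2 difference of -0.09 with a 95% interval from -0.33 to 0.15. Slc17a5, the lysosomal sialic acid exporter sialin, was at 312 and 277 against 307 and 292, with an interval from -0.20 to 0.26. Neither passed in either model.

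The remaining vesicular carriers of monoamines, GABA and glutamate were scarcely detected. Slc18a2 (VMAT2) had at most 1 read in any of the 4 libraries, and Slc32a1, the carrier of GABA and glycine, had 1 read in Wnt5a library A and 0 in the others, where a count of 0 allows up to 3 reads. Slc17a7 (VGLUT1) had 4 and 10 reads with the empty virus and 2 and 5 in the Wnt5a libraries, and Slc17a8 (VGLUT3) had 2 and 2 against 5 and 4. By comparison, the fall of Slc17a6 rests on 524 and 585 reads in the empty libraries and 228 and 287 after Wnt5a.

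**Figure D3:**
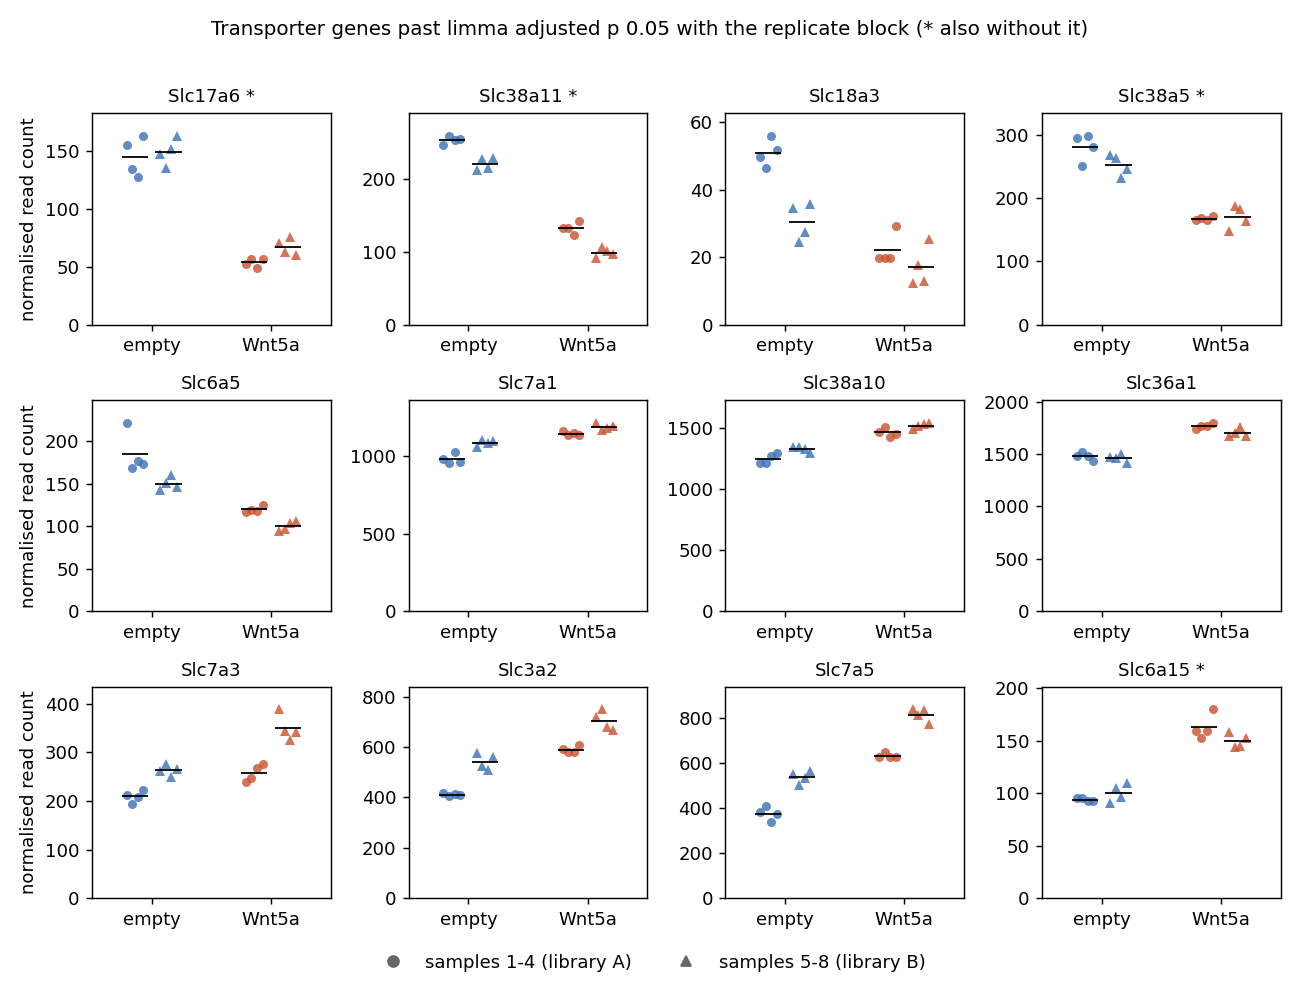
Normalised read count (linear axis from 0) of the 12 members past the limma threshold with the replicate block, in order of log2 difference; a star marks the 4 that also passed without it. Each point is a sample, circles are samples 1 to 4 and triangles samples 5 to 8, and the bars are library means. Slc17a6 falls from 127 to 163 in the empty samples to 48.6 to 75.6 in the Wnt5a samples, and Slc7a5 and Slc3a2 show both a step between libraries and a step between groups.

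The Slc38 and Slc36 carriers of glutamine and other small amino acids split in direction. Of the 8 Slc38 members above the minimum, 2 fell in both models and 1 was higher with the block. Slc38a11, a poorly characterised member, was at 253 and 221 with the empty virus and 133 and 98.9 in the Wnt5a libraries. Each Wnt5a sample (91.2 to 142, median 115) lay below each empty sample (212 to 259, median 237). The log2 difference was -1.04 (SE 0.16, n = 2 per group; adjusted p by limma 0.028 without and 0.00089 with the block), a 2.05-fold lower mean. Slc38a5 encodes SNAT5, an exchanger of glutamine, asparagine and histidine for protons. It was at 282 and 252 with the empty virus and 168 and 171 in the Wnt5a libraries. Its Wnt5a samples (149 to 187, median 167) also lay below all empty samples (231 to 298, median 266). Its log2 difference was -0.65 (SE 0.10, n = 2 per group; adjusted p by limma 0.028 without and 0.0030 with the block), a 1.58-fold lower mean. Slc38a11 lies on chromosome 2 and Slc38a5 on the X chromosome, whose median differences were -0.0044 and -0.0064. Without the filter on low values neither passed (limma adjusted p = 0.111 and 0.076), nor did they without the trend in eBayes (0.074 and 0.061). Slc38a5 was also lost when Wnt5a library A or B was left out (limma adjusted p = 0.088 and 0.093), where the lone Wnt5a library is assumed to vary like the empty ones.

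The promoters of the 3 carriers that fell are shown because these genes were lower in the same samples. Each is the 250 bases before the start in the RefSeq table of GRCm38.p6, written 5′ to 3′ on the strand of the gene. Slc17a6 is at chr7:51621580-51621829 (plus strand, the first of 2 listed starts), Slc38a11 at chr2:65364027-65364276 (minus strand) and Slc38a5 at chrX:8271131-8271380 (plus strand). Capitals mark the E-box letters CACGTG, found in Slc38a5 alone of the 3, beginning 30 bases before the start.
Slc17a6: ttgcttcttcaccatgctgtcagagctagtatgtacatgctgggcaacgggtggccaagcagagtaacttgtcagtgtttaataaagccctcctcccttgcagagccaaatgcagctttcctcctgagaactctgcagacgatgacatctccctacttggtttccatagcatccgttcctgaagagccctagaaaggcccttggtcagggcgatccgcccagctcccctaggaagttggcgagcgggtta
Slc38a11: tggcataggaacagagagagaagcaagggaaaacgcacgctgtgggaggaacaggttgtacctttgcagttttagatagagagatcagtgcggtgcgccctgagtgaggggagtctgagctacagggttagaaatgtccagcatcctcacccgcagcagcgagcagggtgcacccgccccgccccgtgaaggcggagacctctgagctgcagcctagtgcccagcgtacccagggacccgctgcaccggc
Slc38a5: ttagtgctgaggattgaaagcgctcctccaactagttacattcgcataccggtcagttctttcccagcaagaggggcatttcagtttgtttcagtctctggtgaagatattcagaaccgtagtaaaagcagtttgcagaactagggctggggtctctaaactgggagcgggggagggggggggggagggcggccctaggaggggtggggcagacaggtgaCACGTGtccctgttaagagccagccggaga

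Across the windows of 300 bases (250 before and 50 after the start) in the RefSeq table, 26 of the 36 symbols had an entry, with 34 windows. The letters CACGTG, which read the same on both strands, were found in 5 of these windows, of Slc36a1, Slc38a5, Slc38a7, Slc43a1 and Slc7a14, and in 7.15% of all 32851 windows. The letters TGACNNNGC, a core of the antioxidant response element, were found on either strand in 8 windows of 6 members (12.4% of all windows). In Slc36a1 an E-box match and a match to this core overlap at the start by 2 letters, and a second E-box begins 31 bases before it. The 5 members with an E-box include 1 that fell, 1 that was higher with the block and 3 that passed in neither model.

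The 2 most abundant carriers changed little. Slc38a2 was at 3333 and 3412 with the empty virus and 3914 and 3591 in the Wnt5a libraries, a log2 difference of 0.15 with a 95% interval from -0.04 to 0.34. Its Wnt5a samples (3533 to 4017) exceeded every empty sample (3282 to 3509), but the limma adjusted p was 0.42, and 0.089 with the block. Slc38a1 was at 3284 and 2986 against 3472 and 3418, an interval from -0.05 to 0.33. Slc38a9, the lysosomal arginine sensor of mTORC1, was at 144 and 143 against 160.4 and 140.4. Slc38a7, which exports glutamine from lysosomes, was at 132 and 120.5 against 129 and 138, and Slc38a6 at 49.9 and 47.9 against 45.1 and 48.8. None of these 5 passed in either model.

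Slc36a1 and Slc38a10 passed with the block only, and both lie on chromosome 11, whose tested genes had a median difference of 0.17. Slc36a1 was at 1478 and 1462 with the empty virus and 1768 and 1702 in the Wnt5a libraries, a log2 difference of 0.24 (SE 0.07; adjusted p by limma 0.16 without and 0.012 with the block). Slc38a10 was at 1252 and 1330.0 against 1468 and 1523, a difference of 0.21 (SE 0.07; adjusted p by limma 0.22 without and 0.019 with the block). In both genes the Wnt5a samples did not overlap the empty samples. After the chromosome median was subtracted, the differences were 0.07 and 0.04 and neither passed (limma adjusted p = 0.37 and 0.60 with the block). Slc36a4, another carrier of the family, was at 633 and 702 with the empty virus and 665 and 670.4 in the Wnt5a libraries, with an interval from -0.19 to 0.20.

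Of the 8 Slc6 members above the minimum, carriers that use sodium and chloride gradients, 1 rose in both models and 1 was lower with the block. Slc6a15 encodes B0AT2, which takes up branched-chain amino acids and proline in neural cells. It was at 93.8 and 100.3 in the empty libraries and 163 and 149.8 in the Wnt5a libraries. Its Wnt5a samples (144 to 179.9, median 155) exceeded every empty sample (90.8 to 109, median 95.1). The log2 difference was 0.68 (SE 0.11, n = 2 per group; adjusted p by limma 0.036 without and 0.0051 with the block), a 1.61-fold higher mean. It lies on chromosome 10, with a median difference of -0.0050. The call was lost without the filter (limma adjusted p = 0.093), without the trend (0.053), with a minimum value of 50 (0.056), and without Wnt5a library A (0.16) or B (0.10).

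Slc6a5 encodes GlyT2, the glycine carrier of glycinergic nerve endings. It was at 185 and 150.2 with the empty virus and 120.2 and 100.3 in the Wnt5a libraries. Its Wnt5a samples (94.98 to 125) lay below all empty samples (143 to 222). The log2 difference of -0.60 (SE 0.15) passed with the block (limma adjusted p = 0.0050) and not without it (0.11). It also passed with DESeq2 (adjusted p = 0.027), which called 6 members in all, 2 higher and 4 lower. Over the fits that leave out a library, the log2 difference of Slc6a5 ran from -0.75 to -0.45. The second glycine carrier, Slc6a9 (GlyT1), was at 244 and 266 against 262 and 279.7, with a 95% interval from -0.14 to 0.31. Slc6a6, the taurine carrier, was at 2515 and 2433 against 2428 and 2187, an interval from -0.30 to 0.09. Slc6a8, the creatine carrier, was at 497 and 490.4 against 528 and 535. Slc6a17, a vesicular carrier of neutral amino acids in neurons, was at 963 and 816 against 816 and 773. Slc6a20a, a carrier of proline, was at 226 and 178 against 181 and 168; its near-identical neighbour Slc6a20b had at most 2 reads per library, so reads could be split between the copies. Slc6a14, the scarcest member above the minimum, was at 17.4 and 10.95 against 13.1 and 7.97, and its interval from -1.19 to 0.40 leaves a large difference either way unresolved. None of these 6 passed in either model.

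The heteromeric carriers consist of a heavy chain encoded by Slc3a2 (4F2hc, also called CD98) and a light chain of the Slc7 family. Slc3a2 and 3 of the 8 Slc7 carriers above the minimum were higher after Wnt5a with the block, and 0 of these 9 passed without it. Slc7a5 encodes LAT1, the light chain that exchanges large neutral amino acids such as leucine. It was at 376 and 539 in empty libraries A and B and at 634 and 816 in Wnt5a libraries A and B. The Wnt5a samples (626 to 839.8) exceeded every empty sample (338 to 567), while library B was above library A in each group. The log2 difference was 0.67 (SE 0.19; adjusted p by limma 0.14 without and 0.0011 with the block), at 0.75 within pair A and 0.60 within pair B. Slc7a5 passed with DESeq2 on the recovered reads (adjusted p = 0.0038) and not with edgeR (0.149). It passed in limma without empty library B (difference 0.93, adjusted p = 4.7e-05), but not without empty library A (0.41, adjusted p = 0.090) or Wnt5a library A (0.86, 0.063) or B (0.49, 0.42).

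Slc3a2 followed the same pattern, at 411 and 542 with the empty virus and 589.7 and 704 in the Wnt5a libraries. Its samples did not overlap, but the highest empty sample (576) came close to the lowest Wnt5a sample (579.8). The log2 difference was 0.45 (SE 0.15; adjusted p by limma 0.20 without and 0.0043 with the block). It was 0.25 without empty library A and 0.65 without empty library B (limma adjusted p = 0.39 and 0.0015). Slc3a2 lies on chromosome 19, whose tested genes had a median difference of 0.36. With that median subtracted the difference was 0.09, and it no longer passed with the block (limma adjusted p = 0.39). Slc7a5 lies on chromosome 8, with a median of 0.0064, and its call with the block held (limma adjusted p = 0.0011).

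The cationic carriers Slc7a1 (CAT1) and Slc7a3 (CAT3) bring arginine and lysine into the cell. Slc7a1 was at 982 and 1086 with the empty virus and 1145 and 1188 in the Wnt5a libraries, a log2 difference of 0.18 (SE 0.08). Its limma adjusted p was 0.36, and 0.048 with the block, and 0.067 when chromosome medians were also subtracted. The median of its chromosome, 5, was -0.00053, and the difference stayed at 0.18 after subtraction. Without empty library A the difference was 0.10. Slc7a3 was at 209 and 263 against 258 and 349.6, a difference of 0.36 (SE 0.17; adjusted p by limma 0.39 without and 0.013 with the block). Its Wnt5a samples (238 to 388) overlapped the empty samples (194 to 275). Without Wnt5a library A or B the difference was 0.57 or 0.14, and without empty library A or B it was 0.19 or 0.52. Only the fit without empty library B passed among these 4 (limma adjusted p = 0.034). Slc7a2 (CAT2) went in opposite directions in the library pairs, from 429 to 554 between the A libraries and from 389.9 to 335 between the B libraries. Its 95% interval, from -0.44 to 0.59, was the second widest of the members that passed in neither model.

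The other light chains and relatives passed in neither model. Slc7a6 (y+LAT2), another partner of Slc3a2, was at 804 and 870.1 with the empty virus and 842 and 921 in the Wnt5a libraries. Slc7a11 encodes xCT, the cystine and glutamate exchanger that feeds glutathione synthesis. It was at 120.0 and 129.6 against 107 and 131, a log2 difference of -0.08 with a 95% interval from -0.39 to 0.24. Slc7a14, a lysosomal relative of the cationic carriers, was at 1125 and 962 against 1041 and 979.6, and Slc7a4 at 148 and 121 against 123 and 117. Slc7a6os, which is no carrier, was at 207 and 266 against 237 and 272; whether the counting used strand is not stated, so reads of overlapping genes may be shared.

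The amino acid response element is a DNA motif to which Atf4 binds, and its core letters TGATGNAA were searched on both strands. They were found in windows of 2 of the 26 members with an entry, Slc7a11 and Slc1a4, and in 3.97% of all windows. These stretches are shown because they hold the matches. Neither gene passed in either model, and the windows of Slc3a2 and Slc7a1 hold no such letters. Only 250 bases before and 50 after each listed start were searched, so letters elsewhere in a gene would be missed. Whether Atf4 acts on any of these genes was not tested. Slc7a5, Slc7a3 and Slc6a15 are not in the table. Capitals mark the matches, and both stretches are from the RefSeq table of GRCm38.p6, minus strand. In Slc7a11 (chr3:50443623-50443709) there are 2 matches on opposite strands, beginning 66 and 47 bases before the start, and in Slc1a4 (chr11:20332710-20332747) there is 1, beginning 4 bases before the start.
Slc7a11: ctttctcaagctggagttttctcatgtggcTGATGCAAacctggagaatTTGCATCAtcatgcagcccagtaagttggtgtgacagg
Slc1a4: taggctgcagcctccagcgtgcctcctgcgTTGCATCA

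The neutral amino acid exchangers of the Slc1 family and the Slc43 carriers passed in neither model. Slc1a5 (ASCT2), which exchanges glutamine, was at 955 and 986 with the empty virus and 849 and 1037 in the Wnt5a libraries, with a 95% interval of the log2 difference from -0.30 to 0.20. Slc1a4 (ASCT1), a carrier of serine and alanine, was at 433 and 429 against 475 and 480.5. Its difference of 0.15 (adjusted p by limma 0.41 without and 0.10 with the block) became -0.02 when the median of chromosome 11 was subtracted. Slc43a2 (LAT4), also on chromosome 11, was at 404 and 444 against 405 and 463, and Slc43a1 (LAT3) at 84.7 and 69.0 against 81.9 and 80.2. In all, 24 of the 36 passed in neither model, with differences from -0.40 (Slc6a14) to 0.15 on the log2 scale. A p above the threshold does not show that their levels were equal.

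The library pairs gave separate readings of the same comparison. Of the 36 symbols, 10 differed in sign between pair A and pair B, and for these 10 the difference in the model was at most 0.08. Independently of Wnt5a, 10 of the 36 differed between libraries B and A without overlap of the samples and in the same direction in both groups, as did 18.2% of all genes (8.94% higher and 9.28% lower). Higher in B were Slc7a5, Slc3a2, Slc7a1, Slc7a3, Slc7a6 and Slc7a6os, and lower in B were Slc18a1, Slc38a11, Slc6a5 and Slc7a2. For Slc7a5 the step from A to B was 0.52 with the empty virus and 0.36 in the Wnt5a group on the log2 scale, near the size of its difference between groups. What the sample numbers stand for is not given, so the source of this step cannot be named.

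**Figure D4:**
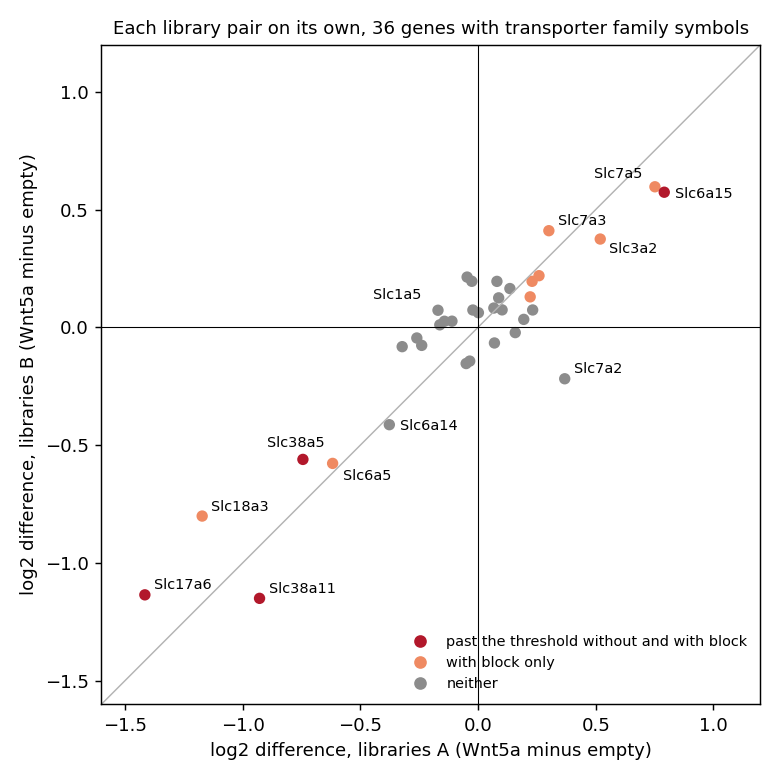
Log2 difference (Wnt5a minus empty) of the 36 symbols within libraries A (x axis) and within libraries B (y axis); the diagonal marks equal differences, and colours mark the calls as labelled. The 12 called members lie in the quadrants where both pairs agree, from Slc17a6 (-1.42 and -1.14) to Slc7a5 (0.75 and 0.60). Their selection by the fit with the block favours such agreement. Slc7a2 (0.37 and -0.22) lies far from the diagonal.

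The 30 symbols under the minimum reached a mean of at most 7.30, and 24 of them were under 2. Just below the minimum stood Slc17a9, a vesicular nucleotide carrier, at 11.04 and 7.38 with the empty virus and 5.88 and 4.92 in the Wnt5a libraries, followed by Slc36a1os (mean 6.95) and Slc3a1 (5.81), the heavy chain of the kidney cystine carrier. Just above it stood Slc6a14 (12.4), Slc18a3 (30.2) and Slc38a6 (47.9). Carriers that clear transmitters from synapses were among the scarcest. Slc6a3 (dopamine) had at most 13 reads in a library, Slc6a4 (serotonin) at most 5 and Slc6a2 (noradrenaline) at most 3. The glutamate carriers Slc1a1 and Slc1a2 had at most 4 and 2 reads, and the GABA carriers Slc6a11 and Slc6a13 at most 1 and 10. In 15 of the 30, no library held more than 3 reads, so no difference was detectable at this depth.

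Genes around the carriers were described from 5 lists. Of 28 tested target genes of Atf4, 1 was higher in the model without the block and 8 were higher and 0 lower with it, with a median difference of 0.12 against 0.0026 over all genes. These are 3.57% and 28.6% of the list, where 2.06% and 17.0% of all genes were called. Psat1, a serine synthesis enzyme, was at 325 and 434 with the empty virus and 796 and 981 in the Wnt5a libraries (limma adjusted p = 0.015). Shmt2, the mitochondrial serine hydroxymethyltransferase, was at 771 and 839 against 1019.9 and 1142 (adjusted p by limma 0.075 without and 0.0024 with the block). Nupr1, a stress-responsive chromatin protein, was at 41.6 and 29.8 against 56.8 and 57.2 (adjusted p by limma 0.15 without and 0.028 with the block). Psat1 lies on chromosome 19. With the median of that chromosome subtracted its limma adjusted p was 0.057 without the block and 0.00038 with it.

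Of 34 genes of amino acid sensing by mTORC1, 1 was lower without the block, and 1 was higher and 5 lower with it, with a median of 0.02. These shares, 2.94% and 17.6%, lie near the 2.06% and 17.0% of all genes. Rragb, a Rag GTPase that carries the amino acid signal to mTORC1, fell from 1587 and 1519 to 1061 and 1062 (adjusted p by limma 0.015 without and 0.00089 with the block). Mtor, the kinase itself, was at 1149.6 and 1039 with the empty virus and 921 and 790.5 in the Wnt5a libraries (adjusted p by limma 0.15 without and 0.0049 with the block). Gatsl2, listed by RefSeq as Castor2, was at 1467 and 1289.8 against 1178 and 1116 (adjusted p by limma 0.21 without and 0.013 with the block).

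Of 24 enzymes of glutamate, GABA, glutathione and linked amino acid metabolism, 2 rose without the block, and 7 were higher and 4 lower with it (median 0.04). These are 8.33% and 45.8% of the list, against 2.06% and 17.0% of all genes. Gad1, counted among the 4 lower, was at 18.5 and 12.5 with the empty virus and 7.75 and 7.03 in the Wnt5a libraries. In the Wnt5a libraries it lay below the minimum, so it was tested only because it was high with the empty virus. What the filter adds to the share of this list was not tested. With chromosome medians subtracted beside the block, Glul, Glud1, Got1, Gpt2, Gad1 and Aldh18a1 no longer passed (limma adjusted p from 0.062 to 0.88). The log2 differences of Glul, Got1 and Aldh18a1 went from -0.28, 0.33 and 0.32 to -0.11, -0.03 and -0.04. Those of Glud1, Gpt2 and Gad1 hardly moved, at -0.18, 0.29 and -0.95 before and after. Shmt1, Shmt2, Pycr1, Oplah and Chac1 still passed, where 9.47% of all genes were called. Shmt1, the cytosolic serine hydroxymethyltransferase, rose from 99.3 and 132 to 265 and 245 (limma adjusted p = 0.016). Pycr1, which makes proline, rose from 147 and 154 to 225 and 239 (limma adjusted p = 0.030). Both lie on chromosome 11. With its median subtracted the call of Shmt1 held (limma adjusted p = 0.030) and that of Pycr1 did not (0.106), while with the block as well both passed (0.0051 and 0.012). Shmt2, described above, is also in this list.

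Of 14 tested enzymes of amine and acetylcholine handling, 0 passed without the block (limma; 5 had an unadjusted p under 0.05), and 3 were lower with it, with a median of -0.15. The share with the block, 21.4%, is near the 17.0% of all genes. Hnmt, which inactivates histamine, was at 29.8 and 35.4 with the empty virus and 22.1 and 16.6 in the Wnt5a libraries (adjusted p by limma 0.16 without and 0.051 with the block). Gch1, the first enzyme of tetrahydrobiopterin synthesis, was at 2452 and 2496 against 2142 and 2048 (adjusted p by limma 0.16 without and 0.014 with the block). Gatm, which makes the creatine precursor, was at 60.4 and 77.7 against 47.2 and 47.6 (adjusted p by limma 0.18 without and 0.038 with the block).

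Of 19 tested receptors for glutamate, GABA and glycine, 3 rose in the model without the block, and 3 were higher and 1 lower with it, while the median was -0.07. The share was 15.8% without the block, against 2.06% of all genes, and 21.1% with it, near the 17.0% of all genes. Gria4, an AMPA receptor subunit, rose from 26.5 and 40.7 to 179 and 159 (limma adjusted p = 0.0033). Grik2, a kainate receptor subunit, was at 2.49 and 3.06 with the empty virus and 24.9 and 24.6 in the Wnt5a libraries (limma adjusted p = 0.0037). Gabra4, a GABA receptor subunit, was at 1.38 and 0.511 against 55.7 and 60.0 (limma adjusted p = 0.0010), and the empty values rest on 5 and 2 reads. In the empty libraries Grik2 and Gabra4 lay below the minimum mean value, so they were tested only because they were high after Wnt5a. The same filter applied to all genes. What it adds to either share of this list was not tested, so the shares cannot show an excess of changed receptors.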

How the data were processed

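Poly(A) RNA was captured with oligo-dT from 500 ng and made into libraries with the NEBNext Ultra kit, per the labels' protocols. The submitters' processing notes name TopHat, Bowtie, HTSeq and DESeq2; genome build, annotation and strand use are not given in the sources used here. Each deposited file gives a signal value per gene, described as normalized data by the authors' file names. All values (100%) were whole multiples, within 0.01, of a step of 0.934 to 1.11 per sample, so whole reads were recovered, and floors cover counting error only. The intervals given for differences between groups came from the limma fit and rest on the spread between libraries. Within-group pairs with an index of dispersion under 1.5 (genes with at least 10 reads) were merged, giving library totals of 30220749, 32592342, 35102931 and 35315408 reads for empty A, empty B, Wnt5a A and Wnt5a B.

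Genes with a mean value of at least 10 (12357) were compared by limma 3.58.1 (R 4.3.3; lmFit, eBayes with trend) on log2(value + 1), which understates changes of low genes, with Benjamini-Hochberg adjustment over all of them. Same-numbered libraries deviated together (Pearson r of 0.44 across genes; 0.17 to 0.22 for the 8 numbered sample pairs), so a fit with the library as a replicate block is given beside it. Alternatives were pseudocounts of 0.1 and 10, no filter, quantile normalization, a minimum of 50, eBayes without trend, median centring, all 16 samples, the block, each library left out, edgeR 4.0.16 and DESeq2 1.42.0 on recovered reads, and subtraction of chromosome medians; its combination with the block was chosen after the data were seen. The fit was tested on simulated data.

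Members, context lists and marker lists were chosen with earlier results of these data known. Values are given for every member past the threshold with or without the block, the 10 highest per kilobase, and the 3 nearest the minimum on each side; for each context list the 3 smallest p-values. All other members are given by library value or count, and context genes under an older symbol were matched through RefSeq synonyms. Chromosomes and promoters came from RefSeq tables of GRCm38.p6 (66 of 66 symbols matched), transcript lengths from GENCODE M21; the files name no build. The values of some genes are not reported here.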

Additional observations from a re-analysis of the deposited data

Results flagged for a closer look

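Within the 8 samples of a group, 3 values stood apart from the rest by Dixon's gap test at the 95% level, among 72 groups of samples examined. Chance flags about 1 in 20 such groups. The highest empty sample of Slc6a5 was at 222, the highest Wnt5a sample of Slc6a15 at 179.9 and the lowest Wnt5a sample of Slc38a6 at 39.2. Slc6a5 and Slc6a15 were taken into the comparison as library means, and the groups of both did not overlap with these samples included.

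Slc7a2 went opposite ways in the library pairs. Every Wnt5a sample of library A lay above every empty sample of library A, with a log2 difference of 0.37. Every Wnt5a sample of library B lay below every empty sample of library B, with a difference of -0.22. The difference between the pairs was not tested, since each pair holds 1 library per group.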

How the results depend on the processing

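The number of members past the threshold, 4 in the main model (1 higher, 3 lower), depended most on what counts as a replicate. It was 12 with the replicate block, 18 with all 16 samples counted separately and 21 with both, and 2 to 9 when a library was left out (2 without either Wnt5a library, 4 without empty library A and 9 without empty library B). It was 1 without the trend in eBayes (Slc17a6) and 0 without the filter on low values (limma; 10 of the 36 had an unadjusted p under 0.05, and edgeR with the filter called 4). Why they differ was not tested. With chromosome medians subtracted it was 4, and 8 with the block as well. The block is given beside each member whose call it changed, and it ended no call of the main model.

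Over all genes the count of 254 (171 higher, 83 lower) became 2095 with the block (1073 and 1022), 4377 with all 16 samples and 5606 with both. It was 538 with DESeq2, 158 without the trend, 146 without the filter (130 and 16), 102 with a minimum of 50, and 138 to 1098 when a library was left out. Subtracting chromosome medians gave 206 (117 and 89), and 1170 with the block (453 and 717). In the context lists the counts were, with the block and over the fits leaving out a library, 8 and 1 to 7 for Atf4 targets, 6 and 0 to 5 for mTORC1 sensing, 11 and 1 to 7 for glutamate metabolism, and 3 and 0 to 2 for amine enzymes. For receptors the fits leaving out a library gave 3 to 6. With chromosome medians subtracted and no block, 0 Atf4 targets (limma; 7 of the 28 had an unadjusted p under 0.05) and 1 glutamate enzyme passed.

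Small differences changed sign in 22 of the results for single members. Slc1a4 (-0.0204) and Slc43a2 (-0.14) did so when chromosome medians were subtracted, with and without the block. Slc36a4, at 0.0016 in the main model, was -0.0040 with DESeq2, -0.0021 with edgeR and -0.0175 after median centring. Leaving out a library gave -0.0582 to 0.11 for Slc17a5, -0.21 to 0.0299 for Slc18a1, -0.19 to 0.10 for Slc1a5, -0.0728 to 0.0760 for Slc36a4, -0.0278 to 0.16 for Slc38a9, -0.0621 to 0.23 for Slc43a1, -0.0655 to 0.13 for Slc43a2, -0.22 to 0.0660 for Slc7a11, -0.15 to 0.0701 for Slc7a14, -0.29 to 0.44 for Slc7a2 and -0.0644 to 0.29 for Slc7a6os. None of these passed in the main model. With 2 libraries per group the precision is limited by their number, and Slc18a3 and Slc6a14 also by depth.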

Other observations

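Among the Atf4 targets, Phgdh, the first enzyme of serine synthesis, was at 297.5 and 455 in empty libraries A and B and at 349.6 and 547 in Wnt5a libraries A and B. Its step from A to B was 0.61 in the empty and 0.64 in the Wnt5a group on the log2 scale. The steps of other targets varied widely. Among them were Trib3 (0.48 and 0.54), Psat1 (0.41 and 0.30), Asns, which makes asparagine (0.11 and 0.18), Shmt2 (0.12 and 0.16) and Cebpb (-0.12 and -0.61). These genes were chosen after their values were seen, and the step was not tested.

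Some genes of the marker lists were abundant in both groups while others of the same list were near 0. Vwf, an endothelial and platelet protein, was at 3205 and 2330.3 with the empty virus and 2300.5 and 2002 in the Wnt5a libraries, where Cdh5 was at most 0.276 in a library. The glial genes Mbp and Aqp4 were at 1478 and 514 or more in the empty libraries, where Gfap had 0 reads.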
